A study of Rousettus aegyptiacus with 32 samples.

Results

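Cortical and striatal gene expression was compared in the Egyptian fruit bat, Rousettus aegyptiacus, with poly(A) RNA-seq of bulk tissue, at the level of single transcript models and of groups of neighbouring models. These were the 12 RNA libraries of a series of 32, the rest being ATAC-seq libraries, and the series as a whole concerns convergent evolution with vocal learning. The cortical group had 8 libraries, from secondary auditory cortex (2A), the primary motor cortex for mouth and face (ofM1) and for the wing (wM1), and a premotor area (PreM). The striatal group had 4 libraries, from the caudate nucleus and the putamen. Each region was taken once from bat 6, an adult female, and once from bat 7, an adult male, with no treatment named. Sex and animal could therefore not be told apart, and the p-values below measure the spread between libraries of 2 animals, not between many animals. For a bat tested alone, they measure the spread between regions of that animal.

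Most neurons of the cortex are projection neurons that release glutamate, whereas most neurons of the striatum are spiny projection neurons that release GABA and receive input from the cortex. One gene can give several transcripts through alternative promoters, splicing or ends, so that a region may differ from another in how much RNA a gene gives or in which of its transcripts it makes. Salmon, the program named for these files, estimates reads per transcript model and divides reads that match several models between them. In bulk tissue, a larger share of cells of one type and more RNA per cell cannot be told apart.

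The files listed 55974 features, each named mRNA with a number, from 78 bases to 1927 kb long (median 18.0 kb). They do not pair the numbers with gene names, and 0 of the IDs were in the gene table of the RefSeq assembly, so no gene, marker or sequence is named and the tissue labels could not be checked against marker genes. Consecutively numbered features whose lengths differed by at most 10% were summed, by number and length alone. This gave 39913 sums, of which 30950 held 1 feature, 5383 held 2, 3148 held 3 to 5 and 432 held more, up to 16. A sum may join models of different genes, and models of 1 gene with unlike lengths stay apart. Whether the lengths include introns is not given, so a changed share is not read here as a change of splicing. The libraries held 40790810 to 76023989 estimated reads, and levels are given as CPM, the usual count relative to library size, after scaling the libraries to each other. Features with 0 reads made up 52.1% to 59.1% of all features in the cortical libraries and 54.0% to 62.7% in the striatal ones, with putamen of bat 6 (62.7%) and 2A of bat 7 (59.1%) the highest. These 2 and putamen of bat 7 are the 3 libraries least like the others, and counts without them are given where they matter.

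Cortex and striatum differed in the totals of many sums. Of 24787 sums that passed the count filter, 1031 were higher in cortex (4.16%) and 830 were higher in striatum (3.35%), together 1861 or 7.51%, by the quasi-likelihood test of edgeR with a Benjamini-Hochberg adjusted p below 0.05. The median change of the called sums was 3.07-fold for those higher in cortex and 2.65-fold for those higher in striatum, where a side with no reads was set to 3 reads per library. Over all sums tested the median difference was 1.41-fold in either direction. At least 4-fold changes made up 373 of the 1031 sums and 262 of the 830, and at least 16-fold changes 122 and 80. The lowest of one class lay above the highest of the other in 822 sums higher in cortex and 648 higher in striatum. Of all sums tested, 2126 (8.58%) were separated in this way. In 39 of the sums higher in cortex and 10 higher in striatum, the other class had no reads in any library. Such sums passed the count filter only through the class with reads. Striatum has fewer libraries, so having no reads in any of them is easier to meet there, and these counts cannot be compared.

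**Figure D1:**
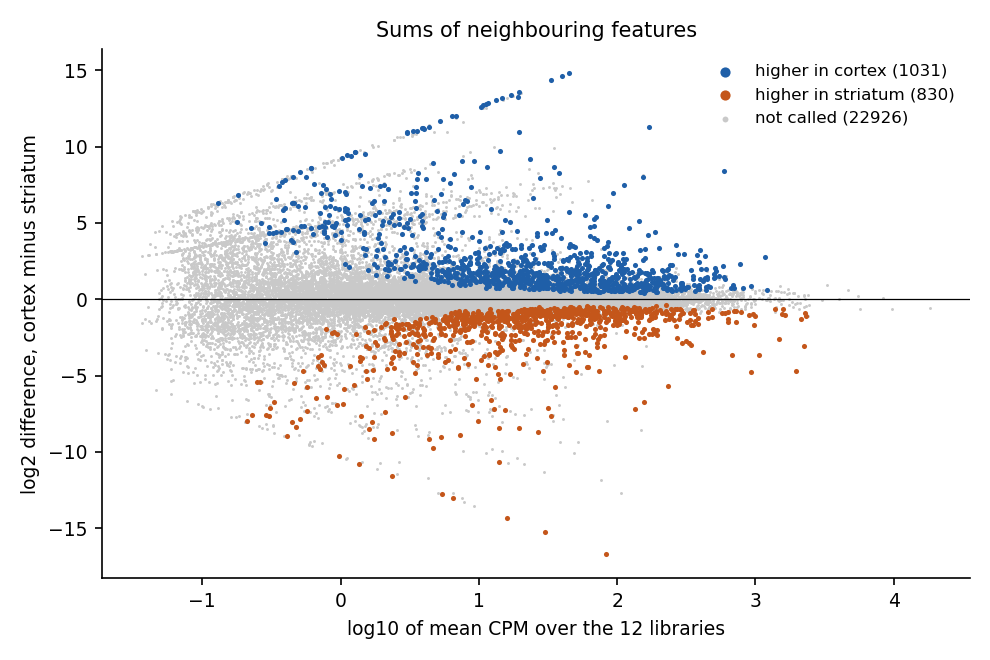
Each point is 1 of 24787 sums, placed by the log10 of its mean CPM over the 12 libraries (x axis) and by its log2 difference, cortex minus striatum (y axis). The 1031 sums called higher in cortex lie above 0 and the 830 called higher in striatum below it, and called sums at high levels reach smaller differences than those at low levels. Fitted differences of sums with 0 reads in a class depend on the fit's prior count and are no bound.

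The share of sums that were called was larger among abundant and among long sums. Sums at a mean of 100 CPM or more were called higher in cortex in 9.97% and higher in striatum in 7.05% of 2127 cases, against 1.23% and 0.576% of 5212 sums under 1 CPM. The median changes of the called sums ran the other way, with 2.07- and 2.11-fold at 100 CPM or more and 9.79- and 22.7-fold under 1 CPM. At low levels only large changes can pass the threshold, so these medians follow in part from the choice of called sums. By length, sums of 100 to 800 kb were called higher in cortex in 7.46% and higher in striatum in 4.95% of 2706 cases, against 3.05% and 3.22% of 5343 sums shorter than 5 kb. Of the 51 tested sums with a feature of 800 kb or more, 9 were higher in cortex and 5 in striatum. Level and length were not varied apart from each other, and their part in the calls was not tested. Of sums of 2 or more features 4.51% were higher in cortex and 3.66% in striatum, against 4.02% and 3.23% of sums of 1 feature.

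The count of called sums depended on single libraries. It was 5086 without putamen of bat 7, of which 3433 were higher in cortex and 1653 in striatum. The median log2 difference of all tested sums was then 0.299, against 0.076 with all libraries and 0.076 without putamen of bat 6. Leaving out caudate gave 922 called sums for bat 6 and 834 for bat 7. The count was 1116 and 1145 without ofM1 of bat 6 and of bat 7. It was 1210 without wM1 of bat 6, and 1230 and 1234 without PreM of bat 6 and of bat 7.

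Both bats were also tested alone, and since they share no library the calls of each could be looked up in the other. These fits, here and below, had terms for cortex and striatum but none for regions. Their spread was thus that between regions of a class in the same animal, unlike in the main fit. Their counts and p-values therefore do not come from the same model as those of both bats together. With 4 cortical and 2 striatal libraries each, bat 6 gave 3527 called sums (15.2% of those tested) and bat 7 gave 360 (1.54%). Of the 360 sums called in bat 7, 357 were tested in bat 6, and 352 of these (98.6%) had the same direction there. Of the 3527 called in bat 6, 3479 were tested in bat 7, and 2867 (82.4%) had the same direction, against 60.5% of all 22373 sums tested in both. Called in both bats in the same direction were 320 sums, 158 higher in cortex and 162 higher in striatum. They made up 9.07% of the calls of bat 6 and 88.9% of those of bat 7, and no sum was called in opposite directions. Of these 320, 111 held 2 or more features.

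Set out here are 4 totals that were called without a called share, named as the sums of 2 or more features with the smallest p, at least 10 CPM on average and no overlap between the classes. The sum of 7 features that starts at mRNA29290, with lengths of 165665 to 167423 bases, was at 172 to 302 CPM (median 250) in the cortical libraries. In caudate it was at 10.8 CPM in bat 6 and 9.29 CPM in bat 7, and in putamen at 20.7 and 14.4 CPM. Every cortical library was above every striatal one, and the log2 difference was 4.19 ± 0.168 (SE, edgeR adjusted p = 1.67e-05). All its reads were given to 1 feature, mRNA29291, in all 12 libraries, so its share could not change.

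The other sum higher in cortex was that of mRNA54989 and mRNA54990, which are 15301 and 15687 bases long. It was at 50.6 to 128 CPM (median 90.6) in cortex, against 2.18 and 2.94 CPM in caudate and 1.19 and 1.43 CPM in putamen of bat 6 and bat 7. Its log2 difference was 5.53 ± 0.227 (SE, edgeR adjusted p = 1.75e-05). Here both features had reads. mRNA54989 held 5.09% to 13.4% of the sum in the cortical libraries (median 9.9%), against 0% in 3 striatal libraries and 100% in putamen of bat 6. The mean shares of the classes differed with an exact permutation p of 0.422 (2-sided, 495 divisions of the libraries). This test divides single libraries without regard to region or bat. The sum was chosen among those without a called share, so this p is no separate evidence that the share is unchanged.

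Higher in striatum was the sum of 2 features that starts at mRNA3775, which are 87276 to 89475 bases long. It was at 52.4 to 142 CPM (median 98.2) in cortex, against 890 and 757 CPM in caudate and 630 and 485 CPM in putamen of bat 6 and bat 7. The log2 difference was -2.86 ± 0.126 (SE, edgeR adjusted p = 2.18e-05), and mRNA3775 held all the reads in every library. Among the cortical libraries, both 2A libraries were the lowest, at 66.4 and 52.4 CPM.

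The sum of 4 features that starts at mRNA24320, with lengths of 6986 to 7406 bases, was the other one higher in striatum. It was at 1.11 to 3.11 CPM (median 1.54) in cortex, against 59.4 and 71.3 CPM in caudate and 173 and 108 CPM in putamen of bat 6 and bat 7, a log2 difference of -5.78 ± 0.282 (SE, edgeR adjusted p = 3.12e-05). The division of its reads varied within each class. mRNA24320 held 0% in 7 cortical libraries and 100% in ofM1 of bat 7, and 25.2%, 61.3%, 95.4% and 26.8% in caudate of bat 6 and 7 and putamen of bat 6 and 7. Its mean share was 12.5% in cortex and 52.2% in striatum (exact permutation p = 0.0525, 2-sided, 495 divisions). This sum too was chosen among those without a called share. Read as single features, putamen of bat 6 had 165 CPM of mRNA24320 and 0 of mRNA24321, while putamen of bat 7 had 28.8 and 75.4 CPM. The sum was at 173 and 108 CPM in the same 2 libraries.

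**Figure D2:**
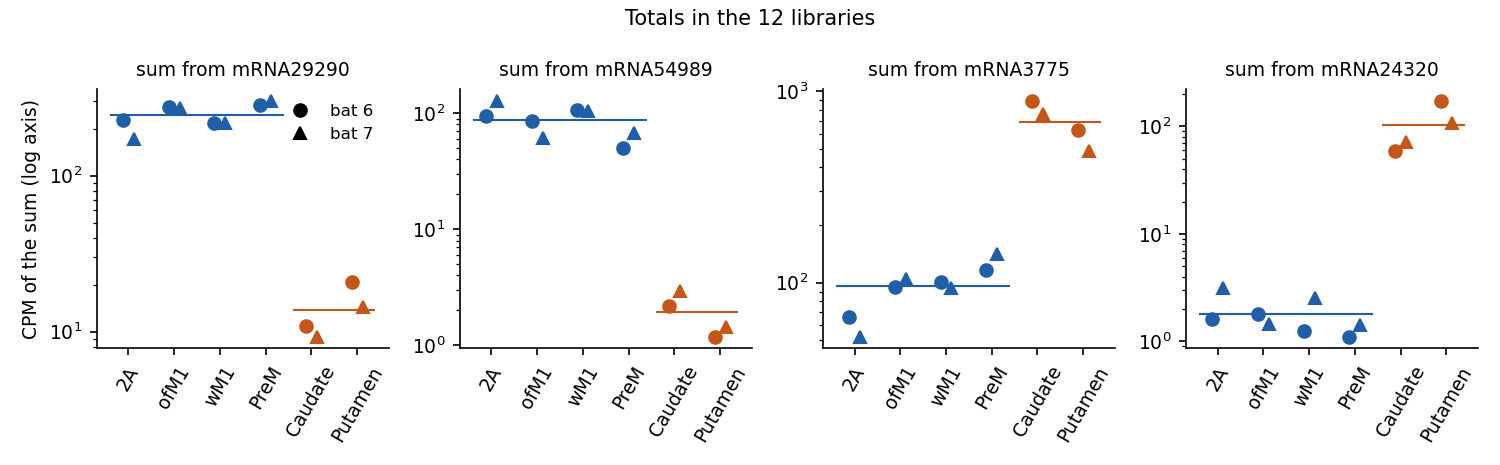
CPM on a log axis for 4 sums in each region (x axis), with circles for bat 6, triangles for bat 7 and lines at the class means, cortex in blue and striatum in orange. The sums from mRNA29290 and mRNA54989 are higher in all 8 cortical libraries and those from mRNA3775 and mRNA24320 in all 4 striatal ones.

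All 4 totals were called in each bat alone. They were chosen with the libraries of both bats, so this is no independent test of them. In bat 6 the log2 differences were 3.99, 5.64, -3.0 and -6.33 for the sums from mRNA29290, mRNA54989, mRNA3775 and mRNA24320, with edgeR adjusted p of 0.00196 to 0.00275. In bat 7 they were 4.3, 5.31, -2.72 and -5.43, with edgeR adjusted p of 0.0072 to 0.0339.

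Single features that were called were then set against their sums. Of 28713 features tested one by one, 1403 (4.89%) were called, 738 higher in cortex and 665 higher in striatum. For 990 of them the sum held no other feature, so a change of the total and a change between models could not be told apart; with lengths within 20% this was so for 842. The other 413 had at least 1 neighbour of like length. In 158 of the 413 the neighbours had no reads in any library, so that the sum was the feature itself and its share could not move. In the other 255, the sum was called in the same direction for 165 features, not called for 85 and called in the opposite direction for 5. The share of the 165 differed between the classes by a median of 3.57 percentage points, and by under 10 points in 110 of them. The share of the 85 differed by a median of 28.4 points, a size that follows in part from the choice of called features in sums that were not called. Of these 85, 73 were in a sum tested for shares, and 10 in a sum with a called share. The median change of their sums was 0.411 on the log2 scale.

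**Figure D3:**
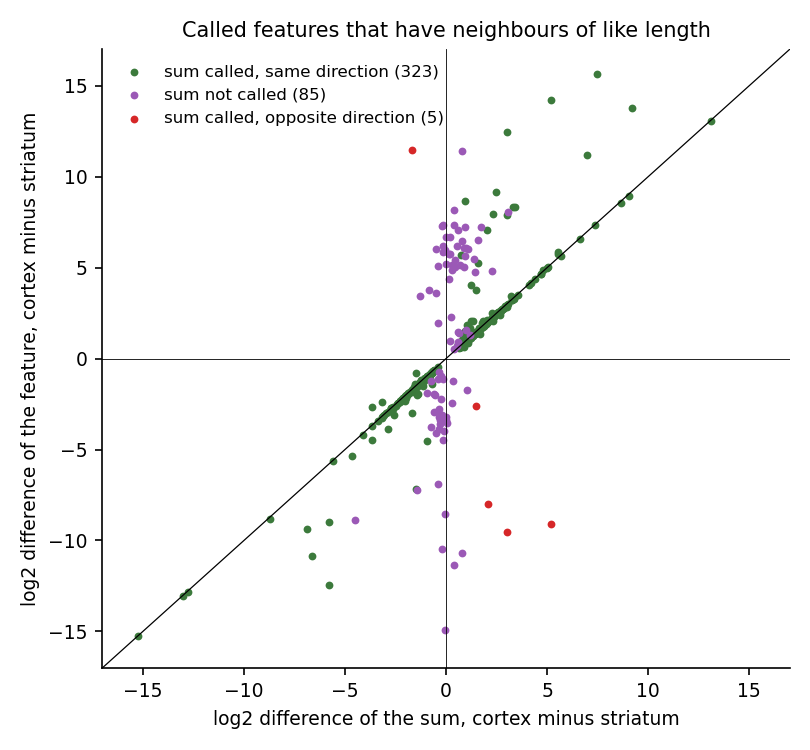
The 413 called features that have neighbours of like length, by the log2 difference of the sum (x axis) and of the feature (y axis), both cortex minus striatum, with the diagonal where both are equal. The 323 features in green have a sum called in the same direction and mostly lie near the diagonal, where the 158 whose neighbours have no reads must lie, the 85 in purple have a sum that was not called and mostly lie near 0 on the x axis, and the 5 in red have a sum called in the opposite direction. Fitted differences of features with 0 reads in a class depend on the fit's prior count.

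Some called totals held no called feature. Of the 571 called sums of 2 or more features, 318 held a called feature and 253 did not. The 253 comprised 140 sums higher in cortex and 113 higher in striatum, with a median change of 2.08-fold, against 2.86-fold for the 318. In 156 of the 253, the feature with the most reads was not the same one in all 12 libraries, and this was so in 41 of the 318. Among sums of 1 feature, 1290 were called, of which 988 were also called in the fit to single features. Both fits use the same reads but estimate the spread over different tables. The fits thus differed also where summing changes nothing, and the part of summing in the 253 was not tested.

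The division of reads within a sum was often all or none. Of 4068 sums with 2 or more features, a mean of at least 10 CPM and reads in every library, 1896 (46.6%) had 1 feature that held at least 99% of the reads in each of the 12 libraries. In 2759 (67.8%) the same feature led, that is, had the most reads, in all 12. In the other 1309 the leading feature changed from library to library. Of the 12313 features in these sums, 4659 (37.8%) had 0 reads throughout.

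The leading feature changed between any pair of libraries, also within cortex and within striatum. Between a cortical and a striatal library, 12.7% ± 3.3 of the sums had another leading feature (SD over 32 pairs), against 10.5% ± 3.0 between different cortical areas (24 pairs), 13.2% ± 0.572 between caudate and putamen (4 pairs) and 11.3% ± 4.69 between both bats for the same region (6 pairs). Pairs across the classes differed by 1.78 percentage points more than pairs within a class, with an exact permutation p of 0.0667 (1-sided, 495 divisions into 8 and 4). This test, here and below, divides single libraries as if they were independent, without regard to region or bat. Putamen of bat 6 and 2A of bat 7, the libraries with the most features at 0, had the highest values, and the part of these features in the result was not tested. Without these and putamen of bat 7, the means were 10.5% across and 8.86% within the classes (exact permutation p = 0.0278, 1-sided, the smallest that 36 divisions allow). Only 3 sums had one leading feature in all 8 cortical libraries and another in all 4 striatal ones, and the totals of all 3 were called as well, but the share of only 1 of them. Only 1 sum had one leading feature in all 6 libraries of bat 6 and another in all 6 of bat 7.

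**Figure D4:**
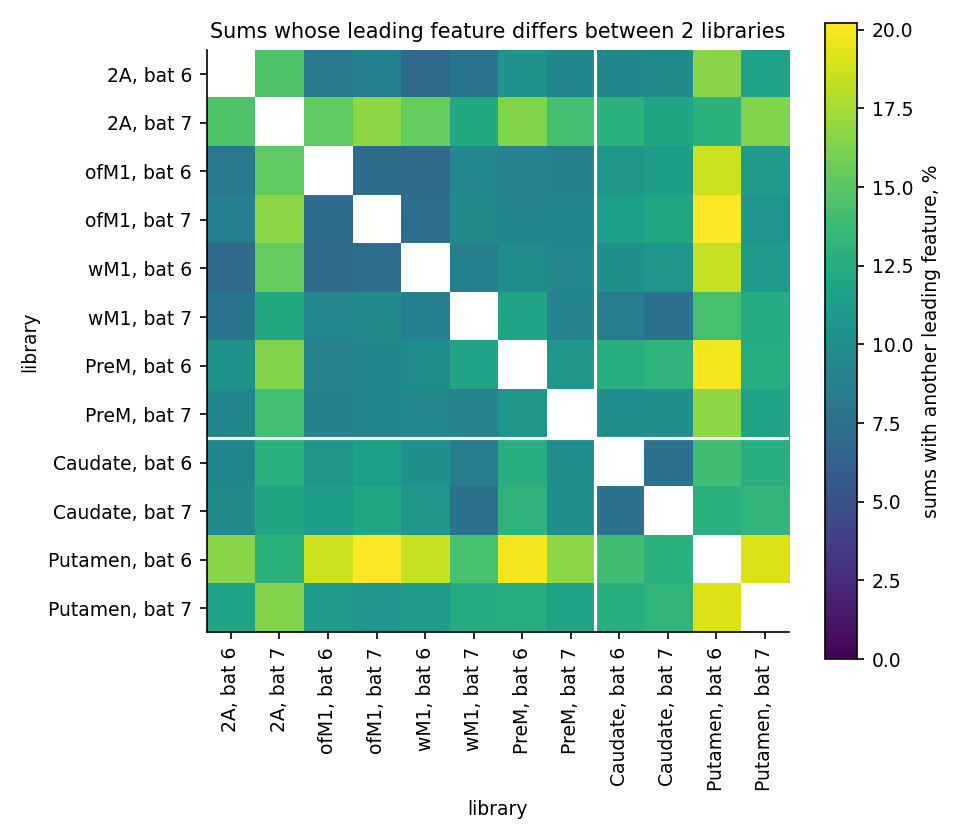
Share of 4068 sums, in percent, whose leading feature differs between 2 libraries, with cortex left of and above the white lines and striatum right of and below them. The values for cortex against striatum, 7.55% to 20.2%, overlap those within cortex, 6.96% to 16.8% between different areas, and the rows of putamen of bat 6 and 2A of bat 7 are the brightest.

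Called changes of shares were few. Of 3240 sums in which 2 or more features passed the filter, 17 (0.525%) had a share that differed between cortex and striatum in edgeR's test of each feature against the rest of its sum after the same adjustment, and 383 had an unadjusted p under 0.05. Of 7213 single features, 20 (0.277%) were called. Of the same 3240 sums, 279 (8.61%) were called for their total. The total was called in 6 of the 17 and not in 11. The largest difference in mean share ran from 2.5 to 100 percentage points (median 36.2). It was 50 points or more in 6 of the 17, and separated all cortical from all striatal libraries in 8. The same counts over all 3240 sums are not given here, so these describe the called sums only. In 16 of the 17, a feature had 0 reads in some libraries and not in others. With the test limited to features read in every library, 13 of 508 sums had a called share. The count was 145 without putamen of bat 7 and 37 without putamen of bat 6, 9 and 6 without ofM1 of bat 6 and of bat 7, 9 and 8 without wM1, and 8 and 11 without caudate. On simulated counts with the spread of the real features this test called more unchanged sums than its threshold allows.

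In bat 6 alone, 112 of 2448 sums (4.58%) had a called share, and in bat 7 alone 12 of 2559 (0.469%). Called in both were 2 sums, those from mRNA2172 and from mRNA26390, each in the same direction in both bats. The sum of mRNA2172 and mRNA2173, 208815 to 210301 bases long, had the smallest p of all shares and was singled out after its values were seen. mRNA2172 held all the reads in all 8 cortical libraries. In striatum it held 78.5% and 70.9% in caudate and 35.3% and 70.7% in putamen of bat 6 and bat 7 (edgeR adjusted p of the share = 9.71e-05). The cortical and striatal shares did not overlap, and the difference was 43.1 percentage points in bat 6 and 29.2 in bat 7. Its total was 189 ± 45.6 CPM (SD, n = 8) in cortex and 193 ± 45.2 CPM (SD, n = 4) in striatum, a log2 difference of -0.03 ± 0.234 (SE, edgeR adjusted p = 1.0). mRNA2173, which had 0 reads in cortex, thus reached 38.0 to 161 CPM in striatum without a called change of the total.

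A pair of sums stood for a changed share with a total that was not called, chosen by the size of the share difference among sums at a mean of 10 CPM or more. Below that level, at 5.79 CPM, the sum from mRNA11266, singled out after its values were seen, had a larger difference of 100 percentage points with no overlap between cortex and striatum (edgeR adjusted p of the share = 0.00808, of the total = 0.516). The sum of mRNA9974 and mRNA9975, 7223 and 7235 bases long, was at 29.1 ± 7.89 CPM (SD, n = 8) in cortex and 34.0 ± 17.4 CPM (SD, n = 4) in striatum (log2 difference -0.18 ± 0.249 SE, edgeR adjusted p = 0.772). mRNA9975 held 100% of the reads in 6 cortical libraries and 0% in both wM1 libraries, and 0% in all 4 striatal libraries. wM1 of both bats thus stood with the striatum, so the division of reads separated regions but not cortex from striatum. Each library gave 830 to 2904 reads to this sum. With 3 reads as the limit, a share of 0 allows at most 0.103% to 0.361% by counting error alone. This limit leaves out the error in the estimated division of reads between the like models of the sum. The adjusted p of its share was 0.000917 in edgeR, but 0.211 when the regions within a class had no terms of their own, and 0.483 in bat 6 and 1.0 in bat 7 alone. With lengths within 20%, which join more features to the sum, the share difference of mRNA9975 was 10.8 percentage points.

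The sum of mRNA55024 and mRNA55025, 6295 and 6249 bases long, was at 14.3 ± 3.49 CPM (SD, n = 8) in cortex and 15.7 ± 5.4 CPM (SD, n = 4) in striatum (log2 difference -0.14 ± 0.291 SE, edgeR adjusted p = 0.871). mRNA55024 held all the reads in the 8 cortical and both caudate libraries, and none in putamen of either bat. Here the change lay between putamen and the other regions. Its share had an adjusted p of 0.0478 in edgeR and 0.097 with the animal as a replicate block, and without any one of the 12 libraries other than putamen of bat 7 it was between 0.0729 and 0.49.

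The total and the share were both called in 6 sums. Set out here is, for each direction of the total, the sum with the smallest share p at a mean of at least 10 CPM. The sum of 3 features that starts at mRNA8598, 61567 to 64967 bases long, was at 18.3 to 71.2 CPM (median 48.1) in cortex, against 1.49 and 0.625 CPM in caudate and 2.17 and 0.653 CPM in putamen of bat 6 and bat 7. Its log2 difference was 5.18 ± 0.569 (SE, edgeR adjusted p = 0.00128). All reads went to mRNA8598 in the 8 cortical libraries and to mRNA8599 in the 4 striatal ones (edgeR adjusted p of the share = 0.00418). The striatal libraries gave as few as 32 reads to the sum. By counting error alone, a share of 0 for mRNA8598 there allows up to 3.06% to 9.38%, with the division of reads between models left out. The adjusted p of the share in edgeR was 0.0501 without ofM1 of bat 7 and 0.071 in bat 7 alone. As a single feature, mRNA8599 was at 0 in cortex and 1.24 ± 0.742 CPM (SD, n = 4) in striatum, opposite in direction to its sum.

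The sum of mRNA26390 and mRNA26391, 231694 and 209128 bases long, was at 9.01 to 14.9 CPM (median 12.3) in cortex, against 34.1 and 28.5 CPM in caudate and 56.1 and 45.8 CPM in putamen of bat 6 and bat 7. Its log2 difference was -1.71 ± 0.159 (SE, edgeR adjusted p = 0.000538). mRNA26391, the shorter, held 14.6% to 71.6% of the reads in the cortical libraries (median 65.6%) and none in the 4 striatal ones (edgeR adjusted p of the share = 0.000454). The feature averaged 6.9 ± 2.74 CPM (SD, n = 8) in the cortical libraries, with 0 reads in the striatal ones, so that it ran against its sum. The Wilson 95% intervals of these shares were at most 8.59 percentage points wide, from 468 to 2507 reads per library, and cover counting error only, not the estimated division of reads between like models. The difference in the share of mRNA26390 was -50.3 percentage points in bat 6 and -61.0 in bat 7.

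**Figure D5:**
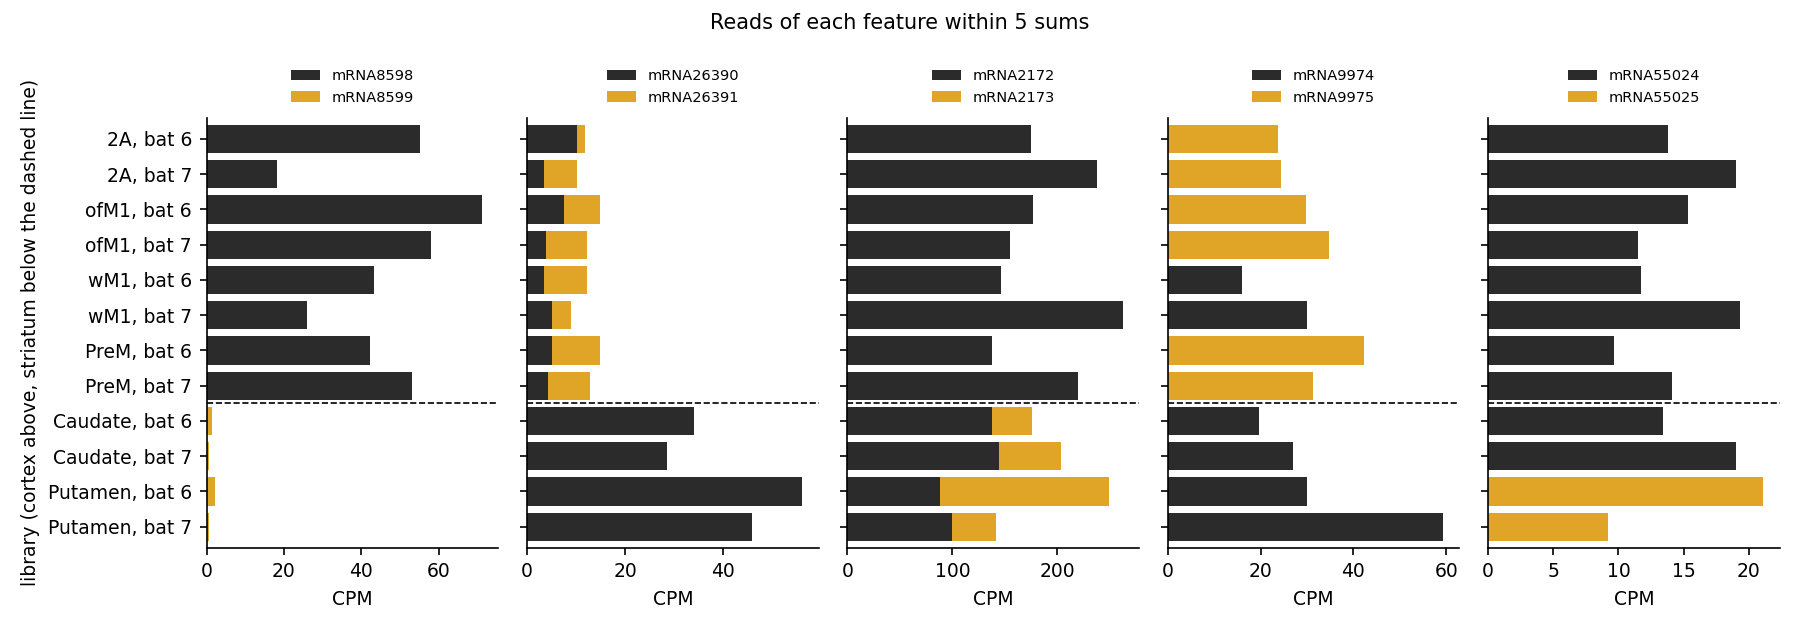
CPM of the features of 5 sums in each library (x axis), stacked so that the whole bar is the total, with the 8 cortical libraries above the dashed line and the 4 striatal ones below. In the sums from mRNA8598 and mRNA26390 both the total and the division change, in that from mRNA2172 the total is alike and mRNA2173 has reads in striatum, and in those from mRNA9974 and mRNA55024 the division changes at wM1 or at putamen.

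The striatal regions were also set against cortex one at a time, with the same cortical libraries in both comparisons. Against caudate, 1219 sums (4.92%) were called, 518 of them higher in cortex and the rest in caudate, and against putamen 983 (3.97%), 545 higher in cortex and 438 in putamen. The sum from mRNA29290 was 4.59 higher in cortex than in caudate and 3.79 higher than in putamen on the log2 scale. The sum from mRNA24320 differed by -5.23 and -6.33. Without putamen of bat 7 the count against putamen was 3576, and without caudate of bat 6 or bat 7 the count against caudate was 362 or 294. Leaving out any of ofM1 or PreM, or wM1 of bat 6, lowered the counts to between 683 and 795 against caudate and between 551 and 651 against putamen, and leaving out either putamen library raised that against caudate to 1903 or 1867.

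Caudate and putamen themselves differed in 26 sums (0.105%), and in 2 with the animal as a replicate block. By a fit to class, bat and their interaction, without region terms, the difference between cortex and striatum differed between the bats in 13 sums (0.0524%). The 8 sums named by rule, which leave out that from mRNA2172, were among neither, with edgeR adjusted p of 0.342 to 1.0 for caudate minus putamen and 0.51 to 1.0 for the difference between the bats.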

How the data were processed

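RNA was poly(A)-selected from flash-frozen tissue, per the labels' protocols. The authors deposited 1 Salmon table per library, not pooled, with estimated counts and TPM per feature, per the file headers, and Salmon 1.5.2 is named without a role in the submitters' processing notes. Sources used here do not give the index, annotation or genome build. The deposited TPM served only for shares as an alternative. Estimated counts were summed and rounded, filtered with filterByExpr by region, scaled by TMM and fitted with 1 term per region in edgeR 4.0.16 (glmQLFit, glmQLFTest, R 4.3.3), with the mean of the 4 cortical minus that of the 2 striatal regions as contrast. The fits to 1 bat alone had terms for cortex and striatum only. The test of the difference between the bats had terms for class, bat and their interaction. Region differences within a class were thus part of the spread in these fits. In every library, 99.79% or more of the reads fell in tested sums. Shares were tested with edgeR's diffSpliceDGE on the features (Simes p per sum). All p-values were 2-sided unless stated. Exact permutation p-values were not adjusted, and the others were adjusted over all sums or features tested unless called unadjusted. An SE is the log2 difference divided by the root of F. The fits were tested on simulated counts.

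Libraries of 1 bat come from the same animal, so the bat pairs them. The differences between bat 7 and bat 6 correlated between regions with r of -0.338 to 0.358 (median 0.106) over 15 pairs. Correlations between libraries were 0.703 to 0.927, with no repeated library. Alternatives were DESeq2 1.42.0, limma 3.58.1, RLE scaling, no filter, the animal as a block, class terms only, other length limits, each bat alone and each library left out. The members and lists were chosen with earlier results of these data known. Sums with a called total or share were named by the smallest p or the largest share difference, with at most 2 IDs per direction and kind of result.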

Additional observations from a re-analysis of the deposited data

Results flagged for a closer look

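In the sum of mRNA54989 and mRNA54990, putamen of bat 6 stood far from the other striatal libraries. mRNA54989 held 100% of the sum there and 0% in the other 3 striatal libraries, and mRNA54990 held 0% there and 100% in the others, while the total was at 1.19 CPM. In the sum from mRNA24320, ofM1 of bat 7 stood apart from the other cortical libraries, with 100% for mRNA24320 and 0% for mRNA24321, and wM1 of bat 7 stood apart with 10.7% for mRNA24322, where the other 7 had 0%. The sum from mRNA24320 was at 1.46 CPM in ofM1 of bat 7 and 2.55 CPM in wM1 of bat 7. These 5 values came from 40 groups examined, and chance gives about 1 in 20. Shares of the same sum in the same library are not independent, so the number flagged is no measure of an excess.

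The difference between cortex and striatum differed between the bats in 13 sums by a test of the interaction, without region terms. Caudate and putamen differed in 26 sums. Both counts move with single libraries: leaving out caudate gave 1453 (bat 6) and 88 (bat 7) for the first, leaving out putamen of bat 7 gave 24, and it was 6 to 8 without 2A of bat 6, ofM1 of bat 6, wM1 of bat 6 or either PreM library. Leaving out putamen gave 1039 (bat 7) and 56 (bat 6) for the second, which was 17 without either 2A library, 6 without either wM1 library and 1 without any of the ofM1, PreM and caudate libraries.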

How the results depend on the processing

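The main counts were 1861 sums, 1403 features and 17 shares. Bat 6 alone gave 3527, 2357 and 112, and bat 7 alone 360 sums and 220 features. DESeq2 gave 4573 sums and 6097 features. Shares numbered 10 with no count filter, 61 without the 3 libraries that stood apart, 9 with lengths within 5%, 41 within 20% and 0 with identical lengths (29 sums tested), 78 by the F test per sum and 305 with limma's diffSplice. With each library left out, sums ranged from 834 to 5086, features from 552 to 4259, shares from 6 to 145, cortex against caudate from 294 to 1903, cortex against putamen from 551 to 3576, caudate against putamen from 1 to 1039 and the difference between bats from 6 to 1453. The region with 1 library left is then assumed to vary like the others, and the count filter, set by the smallest region, admits more sums. Without the 3 libraries, cortex against caudate gave 2347 and the difference between bats 91. Caudate against putamen gave 12 with no count filter and 2 with the replicate block, which otherwise moved no count by over 1.5 times (1715 sums, 1225 features, 16 shares). Across the classes, the leading feature differed more often by 1.78 points, and by 1.63 without the 3 libraries. Among sums of at least 50 CPM the difference was 2.12 points (exact permutation p = 0.0384, 1-sided, single libraries divided without regard to region or bat). Both alternatives were added after the data were seen, and the cause was not tested. Of 183 log2 differences of the 8 named sums under alternatives, 6 changed sign, all in sums whose total was not called: mRNA9974 (0.25 without the 3 libraries, 0.17 in bat 6, -0.4 to 0.11 with each library left out, the highest without putamen of bat 7) and mRNA55024 (0.13 in bat 7, -0.38 to 0.19 with each library left out, the highest without putamen of bat 6, 6.16 as a feature alone). With identical lengths, where these sums are single features, mRNA54989 was no longer called (7.75, edgeR adjusted p = 0.0509) and mRNA9974 was (-10.49, adjusted p = 0.00115). The neighbour of mRNA54989, mRNA54990, with a mean of 90.2% of their sum in cortex, was called as a single feature (log2 difference 5.76). The sum from mRNA26390 differed by -2.91 with lengths within 5%, which leaves out mRNA26391, against -1.71. Of 88 share differences of 4 named features, 20 were no longer called, 15 of them of mRNA55024, 3 of mRNA9975 and 2 of mRNA8598, and that of mRNA9975 was 10.8 points with lengths within 20%. Depth limits shares most in sums with few reads in a class, and the estimated division of reads between like models has no error in the files.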
